A study of Homo sapiens with 6 samples.

Results

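DDAH1 and 9 further genes of arginine metabolism were followed in WM266.4 melanoma cells after silencing of RIPK4. The 10 members are the dimethylarginine hydrolases DDAH1 and DDAH2, the arginine methyltransferases PRMT1 and PRMT5, the arginine-handling enzymes NOS3, ARG2, ASS1 and ASL, and ODC1 and AGMAT, which serve polyamine and agmatine metabolism. They are 10 of the 24526 genes of the deposited count table, and all 10 are among the 16297 genes that had enough counts to be tested. DDAH1 was chosen by its own rise in these libraries, so its difference between the groups is a description: its error and interval show the spread of the libraries, no p-value is given, and whether it is called was set by that choice. The other 9 were chosen by function.

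RIPK4 is a serine/threonine kinase known for its part in keratinocyte differentiation, and the cells are of WM266.4, a line grown from a human melanoma. The 3 neg.si libraries came from cells transfected with Silencer Select Negative Control No. 2, and the 3 RIPK4.si libraries from cells transfected with a RIPK4-specific Silencer Select siRNA. RNA of both groups was taken 48 h after transfection and sequenced in bulk after poly(A) selection. A single siRNA was used against RIPK4, so the loss of RIPK4 and other actions of that siRNA cannot be told apart. In such bulk RNA, fewer cells of a kind and less RNA per cell also cannot be told apart.

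Protein arginine methyltransferases place methyl groups on arginine residues, and breakdown of the methylated proteins releases free methylarginines. Asymmetric dimethylarginine, which PRMT1-type enzymes give rise to, is an inhibitor of nitric oxide synthases, and DDAH1 hydrolyses it to citrulline and dimethylamine. Citrulline can be turned back into arginine by ASS1 and ASL, and arginine is the substrate of nitric oxide synthases, arginases and, through ornithine, polyamine synthesis.

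Counts assigned to genes summed to between 28464057 and 31688095 per library. RIPK4 itself (chr21:41739369-41767089, GRCh38.p13) had 2656, 2298 and 1739 counts in neg.si replicates 1, 2 and 3 and 585, 482 and 670 counts in RIPK4.si. Its level, in CPM (counts scaled to 1 common size of normalized library), was 72.3 ± 15.9 (SD, n = 3) in neg.si and 19.4 ± 2.47 in RIPK4.si, or 26.8% of control, with a log2 fold change of -1.90 (SE 0.203, edgeR's quasi-likelihood adjusted p = 0.0102). That adjusted p was 0.0622 to 0.106 without neg.si replicate 2 or without any 1 RIPK4.si library. The 8 melanocyte-lineage markers all passed the filter on low counts and summed to 3574 to 4012 CPM in neg.si and 2635 to 2759 CPM in RIPK4.si. Of the 8, TYR, DCT and PMEL were lower in every RIPK4.si library than in every neg.si library, while MITF, MLANA, SOX10, TYRP1 and S100B had overlapping groups. Fibroblast markers stayed within 0.724 to 2.93 CPM and leukocyte markers within 1.598 to 2.74 CPM in any library. Keratinocyte markers, nearly all from KRT10, summed to 10.5 to 11.9 CPM in neg.si and 12.2 to 16.3 CPM in RIPK4.si. The part of these marker differences in the results on the members was not tested. Neg.si replicate 3 stood apart from the other control libraries. Among all genes tested, 42.7% were lowest in it of the 3 neg.si libraries, and the deviation of a gene in it went down with GC content (Spearman's rho across genes -0.55), where neg.si replicate 1 went up with it (0.55).

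DDAH1 (ENSG00000153904.20) lies on the minus strand of chr1:85318481-85578363 and encodes the enzyme that removes asymmetric dimethylarginine. The sequence below is a stretch of its last-exon 3' UTR from GENCODE release 44, at chr1:85321219-85321248 on the minus strand of GRCh38. It is shown because it holds, in capitals, the 7 bases AGCAACC, which an earlier look at these libraries had linked with higher transcripts in RIPK4.si. The second stretch is the 3' UTR of AGMAT at chr1:15572800-15572829, minus strand, with the 7 bases ACAGCTT in capitals, which the same earlier look had linked with lower ones. Neither link was tested here, and only the occurrence of the bases is given.
DDAH1: taaatgaattaAGCAACCtagaagatacag
AGMAT: aaaaaaaaaatACAGCTTctcctatgaggt
Only the transcript strand was searched, in the longest 3' UTR of each gene. AGCAACC occurred in the 3' UTR of 8.23% of 12963 tested genes, and among the 10 members in that of DDAH1 alone, once in 2971 bases. ACAGCTT occurred in 15.95% of them, and among the members in that of AGMAT alone, once. DDAH1 and AGMAT (1952 bases) have the longest 3' UTRs of the members, and a longer one has more room for a match. The other members have 199 to 788 bases, beside a median of 1512 over the tested genes. The log2 fold change of AGMAT was 0.21 with overlapping groups, opposite in sign to a link with lower transcripts. Since both 7-base sequences were picked on these same libraries, a match is a description of the transcript and says nothing of a cause.

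DDAH1 had 255, 229 and 316 counts in neg.si replicates 1, 2 and 3 and 922, 1174 and 1169 counts in RIPK4.si replicates 1, 2 and 3. In CPM these were 8.23, 7.63 and 9.95 against 31.4, 40.6 and 37.6. The groups lay far apart, and the lowest RIPK4.si library was 3.16 times the highest neg.si library. The mean level went from 8.60 ± 1.20 CPM (SD, n = 3) to 36.5 ± 4.69 CPM, a fold change of 4.25 with a 95% interval of 3.19 to 5.65, or 2.09 on the log2 scale (SE 0.184). Within neg.si its highest value was in replicate 3 and its lowest in replicate 2, an order that no other member had. The log2 fold change ran from 2.01 to 2.21 when single libraries were left out. It was 2.12 with each library's GC trend removed. A lncRNA on the same strand, AC092807.3, shares 8.35% of the exon bases of DDAH1 and had 15 to 26 counts per library, far below DDAH1 in each.

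**Figure D1:**
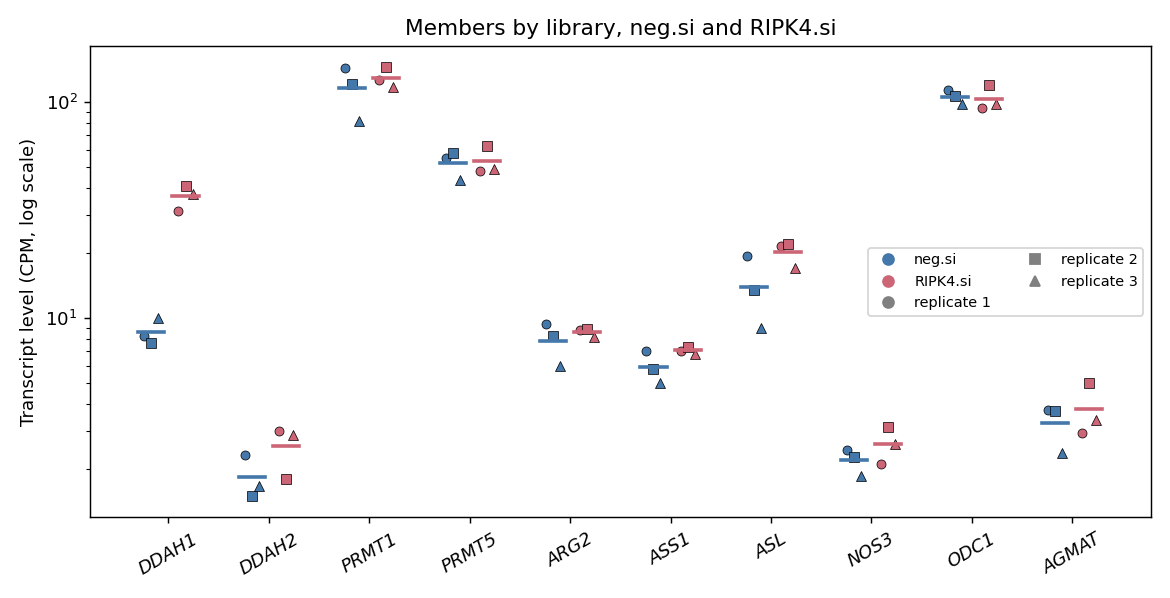
Level of each member in CPM (log axis) in every library, neg.si in blue and RIPK4.si in red, with the replicate given by the shape of the point and the group mean by a line. DDAH1 is the member whose groups do not overlap, at 7.63 to 9.95 against 31.4 to 40.6 CPM, while the points of the other 9 members overlap.

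DDAH2 (ENSG00000213722.9, chr6:31727038-31730617, minus strand), the paralogue of DDAH1, was scarce. It had 2.32, 1.498 and 1.67 CPM in neg.si replicates 1, 2 and 3 and 2.999, 1.80 and 2.86 CPM in RIPK4.si. RIPK4.si replicates 1 and 3 were above all controls, and replicate 2 was below the highest control. The log2 fold change was 0.48 (SE 0.292, 95% interval -0.18 to 1.14, edgeR adjusted p = 0.656), and no change passed the test. On the same strand, CLIC1 shares 1.57% of the exon bases of DDAH2. CLIC1 had 6894 to 13750 counts per library, against 45 to 89 for DDAH2, and the part of CLIC1 transcripts in the DDAH2 reads was not tested. Per kilobase of exon, DDAH1 was 1.82, 2.62 and 3.07 times as abundant as DDAH2 in the neg.si libraries and 5.40, 11.6 and 6.77 times as abundant in the RIPK4.si libraries. The ratio was thus above 1 in each library, and it rests on the values by which DDAH1 was chosen.

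Per kilobase of exon, the methyltransferases were the most abundant members next to ODC1. PRMT1 (chr19:49675786-49689029), the main source of asymmetric dimethylarginine in proteins, had 144, 122 and 81.5 CPM in neg.si and 127, 145 and 117 CPM in RIPK4.si. PRMT5 (chr14:22920525-22929408), which makes the symmetric form, had 54.8, 57.8 and 43.3 CPM in neg.si and 47.9, 62.4 and 48.8 CPM in RIPK4.si. Neither gene separated the groups, and both were lowest in neg.si replicate 3. For PRMT1 the log2 fold change was 0.16 (SE 0.211, 95% interval -0.31 to 0.64, adjusted p = 0.894), and for PRMT5 it was 0.03 (SE 0.176, -0.37 to 0.43, adjusted p = 0.981). Both signs turned when single libraries were left out, PRMT1 reaching -0.03 and PRMT5 -0.10. The antisense gene PRMT5-AS1 shares 28.2% of the exon bases of PRMT5 and had 2 to 11 counts per library, and reads of the shared bases could not be given to either gene.

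NOS3 (chr7:150991017-151014588), the endothelial nitric oxide synthase, had 2.45, 2.26 and 1.86 CPM in neg.si and 2.11, 3.12 and 2.60 CPM in RIPK4.si. The groups overlapped, with a log2 fold change of 0.25 (SE 0.248, 95% interval -0.31 to 0.81, adjusted p = 0.838). Its opposite-strand neighbour ATG9B, which shares 13.3% of its exon bases, had 123 to 263 counts per library, and counting without strand could not separate reads of the shared part. Endothelial markers summed to 4.13 to 4.96 CPM in neg.si and 4.33 to 5.19 CPM in RIPK4.si, of which KDR had 1.23 to 2.43 CPM, TEK 1.10 to 1.86 CPM, PECAM1 0.252 to 1.07 CPM and VWF 0.355 to 0.818 CPM. The part of other cells in the NOS3 reads was not tested. Of the other synthases, NOS2 had 4 to 17 counts per library and did not pass the filter on low counts.

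ASS1 and ASL, the consecutive enzymes that turn citrulline into arginine, both had higher mean levels in RIPK4.si without passing the test. ASL (chr7:66075800-66094697) had 19.3, 13.4 and 9.003 CPM in neg.si and 21.4, 21.9 and 17.1 CPM in RIPK4.si. Only RIPK4.si replicate 3 fell below a control library, neg.si replicate 1. Its log2 fold change of 0.53 (SE 0.264, 95% interval -0.06 to 1.13) was the largest of the 9 members chosen by function, with an unadjusted p of 0.0724 and an adjusted p of 0.528 in edgeR. It ran from 0.30 without neg.si replicate 3 to 0.86 without neg.si replicate 1, and DDAH2 had the larger value without neg.si replicate 3 or RIPK4.si replicate 2. ASS1 (chr9:130444961-130501274) had 7.01, 5.79 and 4.97 CPM in neg.si and 7.05, 7.34 and 6.82 CPM in RIPK4.si. Again the overlap came from RIPK4.si replicate 3 and neg.si replicate 1 alone, and the log2 fold change was 0.25 (SE 0.194, 95% interval -0.18 to 0.69, adjusted p = 0.764). When each library's GC trend was removed, the groups of both genes no longer overlapped, as was so for 23% of all genes tested in that setting, and neither was called (adjusted p = 0.128 for ASL and 0.442 for ASS1 in edgeR). Of pseudogene copies, ASLP1 had 2 to 12 counts per library and the 2 ASS1 copies listed had 0 to 17. Whether reads of ASL or ASS1 were lost through likeness to such copies was not tested. A same-strand gene, ENSG00000249319, shares 9.34% of the exon bases of ASL.

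ARG2 (chr14:67619920-67651708), the mitochondrial arginase, had 9.33, 8.26 and 5.98 CPM in neg.si and 8.79, 8.90 and 8.20 CPM in RIPK4.si. The RIPK4.si libraries lay inside the range of the controls, with a log2 fold change of 0.14 (SE 0.205, 95% interval -0.33 to 0.60, adjusted p = 0.916). ARG2 shares 39.6% of its exon bases with VTI1B on the other strand, and VTI1B had 1129 to 1524 counts per library, so the level of ARG2 is uncertain. ARG1, the hepatic arginase, had 0 to 8 counts per library and was not tested.

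ODC1 (chr2:10439968-10448327), the first enzyme of polyamine synthesis from ornithine, had the smallest log2 SD within neg.si of the 10 members, 0.11. It had 114, 106 and 97.8 CPM in neg.si and 93.8, 120 and 97.7 CPM in RIPK4.si. The neg.si libraries lay inside the range of the RIPK4.si libraries, and the log2 fold change of -0.03 (SE 0.154, 95% interval -0.38 to 0.31, adjusted p = 0.980) was the only one below 0 among the members. AGMAT (chr1:15571699-15585051), annotated as agmatinase, had 3.75, 3.70 and 2.36 CPM in neg.si and 2.93, 5.02 and 3.38 CPM in RIPK4.si. RIPK4.si held the highest value and neg.si the lowest, and the log2 fold change was 0.21 (SE 0.282, 95% interval -0.43 to 0.84, adjusted p = 0.902).

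Of the 10 members, 1 was called at an adjusted p under 0.05, DDAH1, where 0.767% of all genes tested were called in either direction (61 higher and 64 lower). Likewise 1 of the 10 had groups that did not overlap, where 17.6% of all genes tested had. DDAH1 was chosen on this contrast, and nothing is read from these counts. It was not called without neg.si replicate 2, RIPK4.si replicate 1 or RIPK4.si replicate 3, fits in which edgeR called 0 genes in all (1153, 1426 and 1086 at an unadjusted p under 0.05). Of the other 9 members, 8 had a log2 fold change above 0, with a median of 0.21 beside a median of -0.02 over all genes tested, 46.6% of which lay above 0. This count and median moved with single libraries. Without neg.si replicate 3, 5 of the 9 lay above 0 with a median of 0.025, without RIPK4.si replicate 2 it was 6 of 9 with a median of 0.12, and without neg.si replicate 1 it was 9 of 9 with a median of 0.36. None of the 9 had an unadjusted p under 0.05 in the edgeR fit to all 6 libraries. In other edgeR fits ASL had one, 0.0178 with the replicate block, 0.00897 with the GC trend removed, 0.00263 with both and 0.00375 without neg.si replicate 1, and DDAH2 had one without RIPK4.si replicate 2. Among all genes, 1721, 2590 and 2647 of 16297 had such a p in the first 3 of these fits. Without neg.si replicate 1 it was 2268 of 16744, and without RIPK4.si replicate 2 it was 1472 of 16857. Nothing is read from these p-values. In the fit to all 6 libraries, the 95% intervals of the 9 ran from a fold of 0.744 at the lowest bound to 2.20 at the highest, so a doubling of ASL or DDAH2 lay within what these libraries allow.

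**Figure D2:**
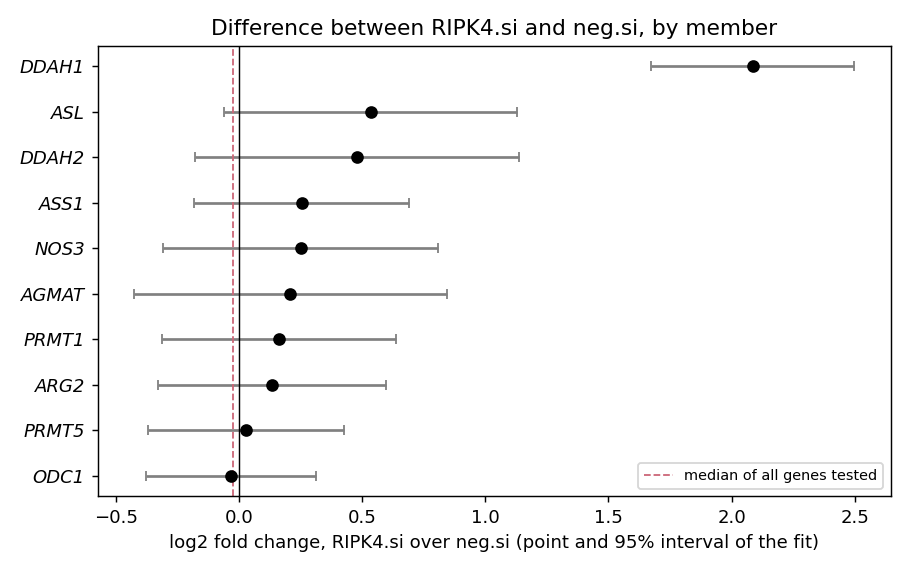
Log2 fold change of RIPK4.si over neg.si for each member, with the 95% interval of the edgeR fit, over 3 libraries a group. The dashed line marks the median of all genes tested, -0.02. The intervals of the 9 members chosen by function include 0. That of DDAH1, which was chosen by its rise, runs from 1.67 to 2.50.

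Levels between genes were compared in CPM per kilobase of exon. In neg.si the order was ODC1 (32.0), PRMT1 (24.1) and PRMT5 (15.9), then ARG2 (3.44), ASL (2.31), ASS1 (1.96) and DDAH1 (1.88), then AGMAT (1.06), DDAH2 (0.775) and NOS3 (0.370). Neighbours in this order overlapped in their libraries except at 3 steps, from PRMT5 to ARG2, from DDAH1 to AGMAT and from DDAH2 to NOS3. In neg.si, DDAH1 thus stood next to ASS1, at percentile 41.3 of genes tested, while ODC1 was at percentile 93.3 and NOS3 at percentile 16.7. In RIPK4.si, DDAH1 had 7.97 ± 1.02 CPM per kilobase (SD, n = 3) and stood at position 4 in place of 7, behind PRMT5 and ahead of ARG2. Its libraries lay below those of ARG2 in neg.si (1.66 to 2.17 against 2.62 to 4.09) and above them in RIPK4.si (6.85 to 8.86 against 3.59 to 3.89). The level of ARG2 is uncertain because of the exon bases it shares with VTI1B, and so is this comparison. The change of position also rests on the values by which DDAH1 was chosen. With the longest transcript as the length, PRMT1 (68.7) came before ODC1 (40.2) and DDAH2 (1.08) before AGMAT (1.06).

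The spread within a group differed between members. The coefficient of variation was larger in neg.si than in RIPK4.si for ASL (37.2% against 13.1%), PRMT1 (27.4% against 10.6%), ARG2 (21.8% against 4.36%), ASS1 (17.3% against 3.70%) and, slightly, DDAH1 (14.0% against 12.8%), and smaller for DDAH2, PRMT5, NOS3, ODC1 and AGMAT. In neg.si, 8 of the 10 members were lowest in replicate 3 and 8 were highest in replicate 1. On the log2 scale, replicate 1 was above replicate 3 by 1.10 for ASL, 0.82 for PRMT1 and 0.49 for ASS1, with a GC content of 58.5%, 56.8% and 57.4%. The most GC-rich members, NOS3 (62.6%) and DDAH2 (61.1%), differed by 0.40 and 0.48, less than AGMAT (51.0%) at 0.67 and ARG2 (45.4%) at 0.64. Across the 10 members the rank correlation of this difference with GC content was 0.32, a description over genes that share the same 2 libraries. DDAH1, the member with the lowest GC content at 40.9%, was lower by 0.27 in replicate 1 than in replicate 3 (log2 difference -0.27). After removal of each library's GC trend, the differences of ASL, PRMT1 and ASS1 were 0.55, 0.38 and 0.01, those of NOS3 and DDAH2 turned to -0.36 and -0.22, and that of ARG2 grew to 0.84. After this removal, 8 of the 10 members had a smaller log2 SD within neg.si. ARG2 and ODC1 were the exceptions. The part of GC content in the group differences of the members was not otherwise tested.

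**Figure D3:**
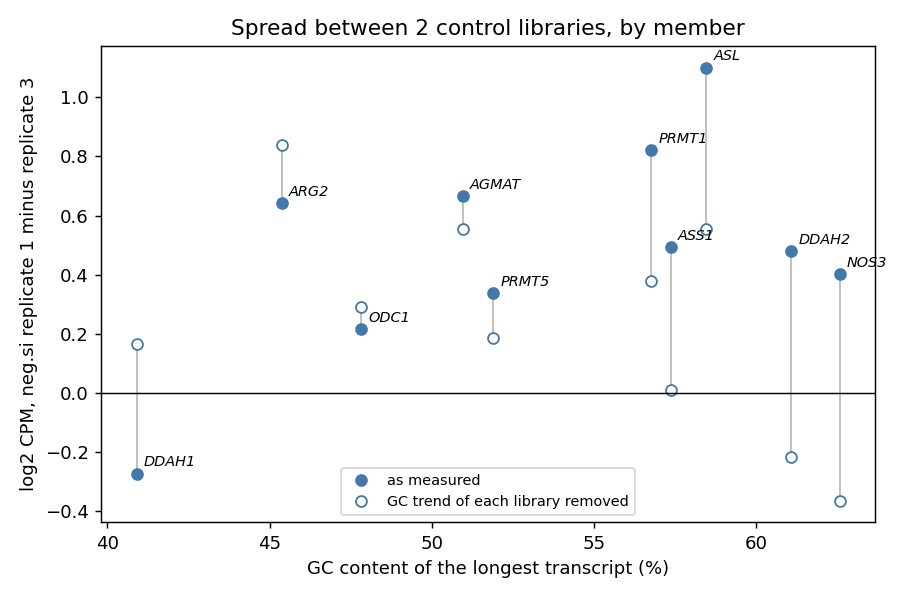
Log2 difference in CPM between neg.si replicate 1 and neg.si replicate 3 (vertical axis) by the GC content of the longest transcript in percent (horizontal axis), one pair of points a member, as measured (filled) and with each library's GC trend removed (open). ASL goes from 1.10 to 0.55 and ASS1 from 0.49 to 0.01, while DDAH1 is the only member below 0 as measured.

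Beyond the members, 76 genes of 10 lists of arginine metabolism were considered, of which 63 were in the table and 59 were tested. None was called higher and 1 was called lower by edgeR. The 1 gene, GATM, encodes the amidinotransferase that moves the amidino group of arginine onto glycine, the first step of creatine synthesis. GATM had 3.003, 3.26 and 2.49 CPM in neg.si and 0.988, 1.25 and 1.16 CPM in RIPK4.si. Its libraries did not overlap between the groups, and its log2 fold change was -1.36 (SE 0.248, adjusted p = 0.0480). This call is at the edge of the threshold. It was made in 7 of 14 alternatives, with adjusted p from 0.00361 to 0.314, and was lost without any 1 library other than neg.si replicate 3 (0.0947 to 0.314) and with DESeq2's size factors (0.0526) or the replicate block (0.0683). At an unadjusted p under 0.05, 4 of the 59 genes were higher and 6 lower, where 10.8% of all genes tested had such a p. Groups did not overlap for 16.9% of the 59, beside 17.6% of all genes tested, and the median log2 fold change of the 59 was 0.04.

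Of the arginine methyltransferases and their partners none was called. All 10 tested genes of that list other than the members had log2 fold changes between -0.12 and 0.27, with PRMT7 at 0.27 (SE 0.224, adjusted p = 0.795) and COPRS, an adaptor of PRMT5 and the most abundant per kilobase, at 0.16. Of the 4 genes for supply of the methyl donor and clearance of its products (MAT2A, MAT2B, AHCY and MTAP) none was called, and their median was -0.43. MAT2B, the regulatory subunit of the synthetase of S-adenosylmethionine, had 39.7, 45.5 and 46.5 CPM in neg.si and 22.3, 31.4 and 29.2 CPM in RIPK4.si (log2 fold change -0.67, SE 0.175, adjusted p = 0.146). Its groups did not overlap, but it did not pass the test. AHCY, which clears the product of methylation, was at 0.09.

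Around nitric oxide, 7 genes other than NOS3 were tested and none was called. QDPR, which regenerates tetrahydrobiopterin, went from 125 ± 6.48 CPM (SD, n = 3) to 93.1 ± 5.11 CPM with no overlap (log2 fold change -0.42, adjusted p = 0.255). In the urea cycle, CPS1 was at -0.24 and the ornithine carrier SLC25A15 at 0.14, both with overlapping groups. The polyamine list held 13 tested genes with a median of -0.04. OAZ2, an antizyme that inhibits ornithine decarboxylase, had 114, 107 and 84.5 CPM in neg.si and 55.2, 68.2 and 59.9 CPM in RIPK4.si, with a log2 fold change of -0.74 (SE 0.167, adjusted p = 0.0966). Every RIPK4.si library was below every control library, and OAZ2 was called in 2 of the 14 alternatives, DESeq2 (0.0184) and the fit without neg.si replicate 3 (0.0213). EIF5A, the protein that carries the spermidine-derived hypusine, was the most abundant of that list and was at 0.27 with an adjusted p of 0.718.

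The 6 genes of ornithine and proline had a median of 0.17. ALDH18A1, which makes the shared precursor of proline and ornithine from glutamate, had 97.6, 97.8 and 84.2 CPM in neg.si and 129, 153 and 128 CPM in RIPK4.si, without overlap (log2 fold change 0.55, SE 0.149, adjusted p = 0.161). OAT, the aminotransferase of ornithine, was at 0.17. The creatine transporter SLC6A8 was at 0.35 (adjusted p = 0.701), opposite in sign to GATM and not past the test. Among the cationic amino acid transporters, SLC7A1, the main importer of arginine, was at 0.14 and SLC7A7 at -0.31, and in the list of arginine sensing CASTOR2 was at -0.54 (adjusted p = 0.377) and the arginyl-tRNA synthetase RARS1 at 0.24. None of these transporters or sensors was called.

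**Figure D4:**
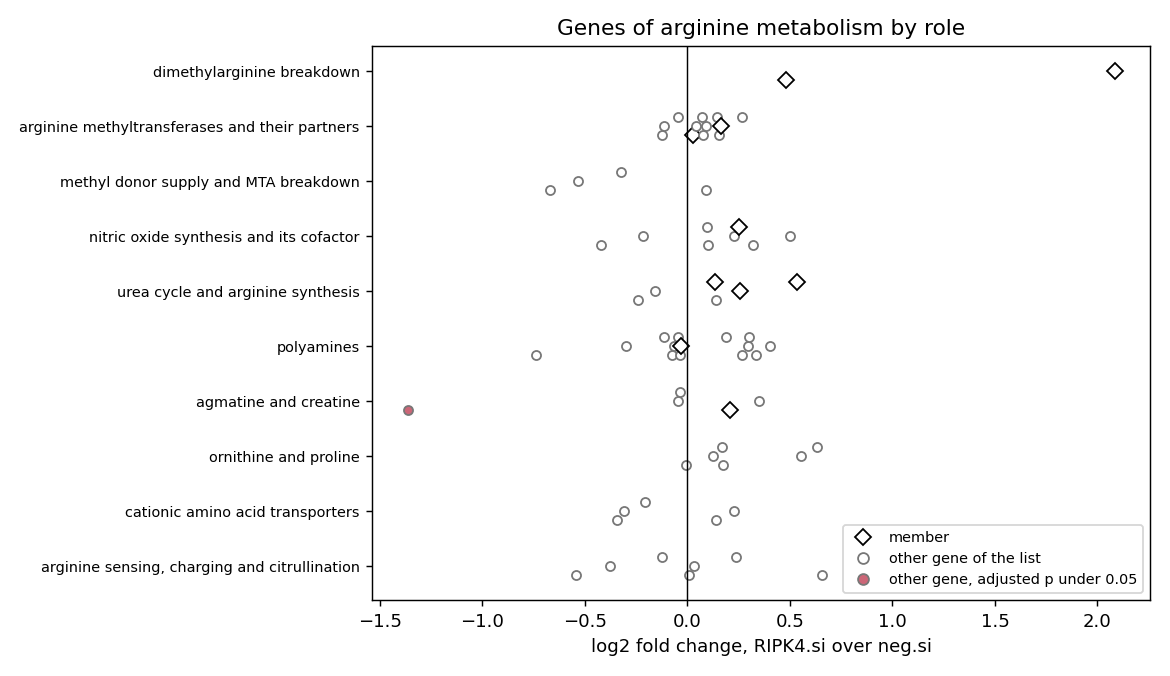
Log2 fold change of RIPK4.si over neg.si (horizontal axis) for every tested gene of the 10 lists of arginine metabolism (vertical axis), members as diamonds and other genes as circles, offset vertically for legibility. The filled circle is GATM at -1.36, and the diamond farthest to the right is DDAH1 at 2.09.

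The 3 genes whose log2 CPM ran most like that of DDAH1 over the 6 libraries, out of 13451 genes with a mean of at least 1 CPM, were ZNF883 (Pearson's r = 0.995), WDR55 (0.993) and TFRC (0.993). These points share the group difference and the libraries, and the likeness is a description. TFRC, the transferrin receptor, had 219, 229 and 273 CPM in neg.si and 598, 657 and 569 CPM in RIPK4.si. ZNF883 and WDR55 were also higher in every RIPK4.si library than in every neg.si library, but by less, with log2 fold changes of 0.45 and 0.54 beside 1.34 for TFRC. The other members of arginine metabolism had an r with DDAH1 between -0.11 (ODC1) and 0.62 (ASS1).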

How the data were processed

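Poly(A) RNA of 6 libraries was sequenced on the BGISEQ-500 as paired reads. For trimming the authors used Cutadapt, for alignment to GRCh38.p13 TopHat, and for counting per gene HTSeq with strand ignored. The deposited counts are whole numbers without normalization and cover 24526 genes, each summing to 6 or more. The table also holds the authors' normalized values, fold changes and p-values, which were not used. No column of library values was left unmatched. Every entry names a gene.

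Counts were tested with edgeR 4.0.16 in R 4.3.3 (TMM scaling, filterByExpr, quasi-likelihood test of condition, Benjamini-Hochberg adjustment over 16297 genes, called at an adjusted p under 0.05). The fit was checked on simulated counts with a common dispersion for all genes and no GC trend. That check therefore does not cover the GC trends and the outlying control library of these data. Log2 CPM used a prior count of 2. GC content, exon lengths, 3' UTRs and overlaps came from GENCODE release 44, which held 24416 of the identifiers, and coordinates of genes from the deposited table. Alternatives were DESeq2 1.42.0, other scalings and filters, a replicate block, removal of each library's lowess trend on GC content (span 0.3) and leaving out each library. Tables and plots used Python 3.11.15 and matplotlib 3.10.9.

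The members, the lists and the tests were chosen with earlier results of these data known. Genes named by rule were the members, RIPK4, from each list every called gene, the gene with the smallest p-value and the most abundant per kilobase, and the 3 genes most like DDAH1. Named outside this rule were NOS2, ARG1, MAT2A and MTAP, the cell type markers, genes that overlap or copy a member, and the genes under other observations. The labels call the libraries replicates and the study speaks of independent experiments, and p-values measure the spread between these libraries. With 3 against 3, an exact permutation test cannot go below a p of 0.1, and none was used.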

Additional observations from a re-analysis of the deposited data

How the results depend on the processing

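DDAH1, chosen by its rise in these libraries, counted as the 1 member called in the fits to all 6 libraries, which is no support for it. The other 9 members were called under none of the 14 alternatives, their smallest adjusted p being 0.0696 (ASL, block with GC trend removed). Over all genes, 125 were called with edgeR, 430 with DESeq2, 533 with the GC trend removed and 434 with the replicate block and the GC trend removed. With libraries left out one at a time the count ran from 0 to 295. It was 0 in edgeR with neg.si replicate 2, RIPK4.si replicate 1 or RIPK4.si replicate 3 left out (unadjusted p under 0.05 in 1153, 1426 and 1086 genes), 4 with RIPK4.si replicate 2 left out, 70 with neg.si replicate 1 and 295 with neg.si replicate 3. The members called ran from 0 to 1, being 0 in those same 3 fits. Of the wider lists, 1 gene was called, 2 with DESeq2 or with the GC trend removed, 0 with DESeq2's size factors and 0 with the replicate block, and 0 to 2 without single libraries. The log2 fold change of RIPK4 ran from -2.06 to -1.74 without single libraries. Its adjusted p rose to 0.106, 0.0940, 0.0622 and 0.0725 without neg.si replicate 2 and RIPK4.si replicates 1, 2 and 3. Left-out libraries turned the sign of 5 members, whose log2 fold changes ran from -0.031 to 0.37 (PRMT1), -0.10 to 0.13 (PRMT5), -0.024 to 0.29 (ARG2), -0.14 to 0.046 (ODC1) and -0.042 to 0.37 (AGMAT), and ODC1 was at 0.0079 with the GC trend removed. The cause was not tested. The labels do not say whether a replicate number marks a shared experiment. Deviations of same-numbered libraries correlated at -0.24, 0.25 and 0.35, and those of differently numbered ones at -0.50 to 0.41. These deviations still held the GC trends of the libraries, so they cannot decide whether the libraries were paired. The replicate block gave 131 calls. With the longest transcript in place of exon bases, the levels per kilobase of 8 members moved by more than 1 SD. DDAH2 and NOS3 had the lowest mean levels of the members, with 45 to 90 counts per library.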

Other observations

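NOSTRIN, a trafficking partner of NOS3, had 3.39, 3.20 and 4.06 CPM in neg.si and 5.59, 4.47 and 5.02 CPM in RIPK4.si, with a log2 fold change of 0.50 (SE 0.205, edgeR adjusted p = 0.405). Spermine synthase, SMS, had 188, 189 and 186 CPM in neg.si and 238, 239 and 234 CPM in RIPK4.si, the tightest of the wider genes within each group (log2 fold change 0.33, SE 0.131, adjusted p = 0.374). Both had groups that did not overlap, as did 17.6% of all genes tested, and neither passed the test. PYCR1, which makes proline, had 29.1, 18.6 and 14.2 CPM in neg.si and 28.3, 36.9 and 30.6 CPM in RIPK4.si. It was called in 1 of the 14 alternatives, with the GC trend removed (adjusted p = 0.0394). ATE1, the arginyltransferase, had 35.8, 41.7 and 50.4 CPM in neg.si and 31.9, 31.7 and 34.8 CPM in RIPK4.si (log2 fold change -0.38, adjusted p = 0.459). These 4 genes were picked after their values were seen.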
